A study of Homo sapiens with 8 samples.

Results

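The arrays compared here are 7 of the 8 expression arrays of a study of early estrogen signalling in SKBR3, an established human breast cancer line with amplified HER2. It is known as negative for the nuclear receptor ERalpha and positive for GPER, a G protein-coupled receptor that binds estrogen. They were chosen by the measured level of ID1. The 3 arrays on which ID1 was low, called ID-low below, came from cells given free estradiol at 1e-06 M, E2-BSA at 1e-06 M with ICI at 1e-05 M, or E2-BSA at 1e-06 M with G15, a GPER antagonist, at 1e-05 M. In E2-BSA the hormone is attached to serum albumin (BSA), which is meant to keep it outside the cell. The 4 arrays on which ID1 was not low, called ID-normal, came from untreated cells and from cells given BSA at 1e-06 M, E2-BSA at 1e-06 M or G15 at 1e-05 M. The array of 0.1% ethanol, taken here as the vehicle of estradiol, took no part in the choice and serves as an array set aside. Ethanol is listed at 0% for the estradiol array, so whether its cells also received ethanol is not known. Treatment lasted 3 h and followed 4 h in a medium whose 10% serum was charcoal-stripped, and each condition has 1 array. The ethanol array stands apart: the SD of its values over genes was 0.277, beside 0.087 to 0.145 on the other 7. The sets therefore mix treatments: estradiol in some form was present on all 3 ID-low arrays and on 1 ID-normal array, and G15 was present in both sets.

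A gene counted as separated where all 3 ID-low arrays lay below all 4 ID-normal arrays, or all above. Of 19771 genes other than ID1 to ID4, 439 were lower (2.22%) and 306 were higher (1.55%). Each gene has 1 value per array, the mean of its probe sets, on a log2 scale centred per probe set, so differences between arrays can be read and levels cannot. The gap is the distance between the nearest arrays of the sets. Because no condition was repeated, and because the sets were chosen from these same arrays, all values below are a description and carry no test. These percentages are the share of all genes that the rule itself picks, and nothing is read from them.

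ID1 to ID4 encode helix-loop-helix proteins without a DNA-binding region. They pair with basic helix-loop-helix transcription factors and keep them from binding E-boxes, the short DNA element these factors recognise. Bone morphogenetic proteins (BMPs) act through serine/threonine kinase receptors that phosphorylate SMAD1, SMAD5 and SMAD9. These enter the nucleus with SMAD4 and switch on target genes within hours. The ID genes are textbook targets of this route, and so are SMAD6 and SMAD7, inhibitory SMADs that act back on the receptors.

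The stretches upstream of 4 genes are printed because they stand for the groups described next: ID1 and ID4 as the ID family, SMAD7 as a feedback inhibitor and CDKN1A as the cell-cycle inhibitor. Each is the 250 bases before the RefSeq start in GRCh38.p14, read 5′ to 3′ along the gene. Capitals mark CAGCTG, an E-box. Positions are chr20:31605039-31605288 on the plus strand for ID1, chr6:19837120-19837369 on the plus strand for ID4, chr18:48950966-48951215 on the minus strand for SMAD7 and chr6:36678464-36678713 on the plus strand for CDKN1A.
ID1: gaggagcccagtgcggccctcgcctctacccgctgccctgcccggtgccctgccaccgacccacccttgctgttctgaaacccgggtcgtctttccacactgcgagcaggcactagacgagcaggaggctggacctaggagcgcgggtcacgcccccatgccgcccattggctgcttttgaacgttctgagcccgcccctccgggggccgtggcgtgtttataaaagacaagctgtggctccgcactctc
ID4: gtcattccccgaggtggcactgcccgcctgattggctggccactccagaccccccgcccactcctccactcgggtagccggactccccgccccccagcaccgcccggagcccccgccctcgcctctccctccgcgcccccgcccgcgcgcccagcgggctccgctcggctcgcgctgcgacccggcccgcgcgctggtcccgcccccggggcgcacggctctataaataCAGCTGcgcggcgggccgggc
SMAD7: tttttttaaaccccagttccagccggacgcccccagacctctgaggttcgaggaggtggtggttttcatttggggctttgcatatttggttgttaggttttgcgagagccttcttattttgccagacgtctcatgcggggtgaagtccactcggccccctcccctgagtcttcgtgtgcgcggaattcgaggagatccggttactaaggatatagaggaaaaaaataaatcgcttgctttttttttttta
CDKN1A: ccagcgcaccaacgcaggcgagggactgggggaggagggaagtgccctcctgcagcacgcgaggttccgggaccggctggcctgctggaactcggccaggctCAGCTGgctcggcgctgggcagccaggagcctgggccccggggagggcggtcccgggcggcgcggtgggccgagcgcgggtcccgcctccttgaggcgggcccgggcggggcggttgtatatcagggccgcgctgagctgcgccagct

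CAGCTG stood in the ID4 and CDKN1A stretches and in neither of the others. Over windows of 250 bases before to 50 after the start, both strands read, it was in 2 of 4 ID promoters. It was in 3 of the 9 promoters on hand for the 14 lower genes with the largest gaps, beside 17.8% of the promoters of 15381 measured genes. Over all lower genes it was in 64 of 354 (18.1%), and over those with a gap of at least 0.1 in 6 of 36 (16.7%), so the larger sets lay at the share of all genes. The other E-box searched, CACCTG, was in 2 of those 9 and in 19.6% of all. GGCGCC, a GC-rich element that SMAD proteins can bind, was in 2 of those 9 (EDN2 and PFKFB3), in none of the 4 ID promoters and in 25.6% of all. It was in 106 of 354 lower genes (29.9%) and in 12 of the 36 with a gap of at least 0.1 (33.3%). On the higher side it was in 59 of 236 (25%), and in 4 of 10 for the 14 widest gaps. The other SMAD element searched, GTCTAGAC, was in none of those 9, in 1 of those 36 and in 2 of 354 lower genes. It was in 0 of 236 higher genes and in 0.124% of all. A match is a string of letters in this window, not a measured binding site.

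The ID genes themselves were low together on the ID-low arrays, as the choice by ID1 and earlier knowledge of ID2 to ID4 imply. ID1 stood at -2.02 with estradiol, -1.93 with E2-BSA plus ICI and -1.70 with E2-BSA plus G15, and between 0.00 and 0.17 on the ID-normal arrays. ID2 stood at -1.24, -1.22 and -0.58 in the same order, so that E2-BSA plus G15 was the mildest of the 3, and between 0.00 and 0.22 on the others. ID3 stood at -0.72, -0.56 and -0.71 against 0.00 to 0.18.

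ID4 stood at -0.70, -0.86 and -0.80 against 0.06 to 0.14. Its 5 probe sets disagreed: 3 separated, the widest with a gap of 1.38, while 2 overlapped. For none of the 4 genes did the sets overlap, and the gaps were 1.70 for ID1, 0.58 for ID2, 0.56 for ID3 and 0.77 for ID4. On the ethanol array ID1 stood at -0.34, between the sets, while ID3 was at 0.20 and ID4 at 0.25, above all ID-normal arrays.

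**Figure D1:**
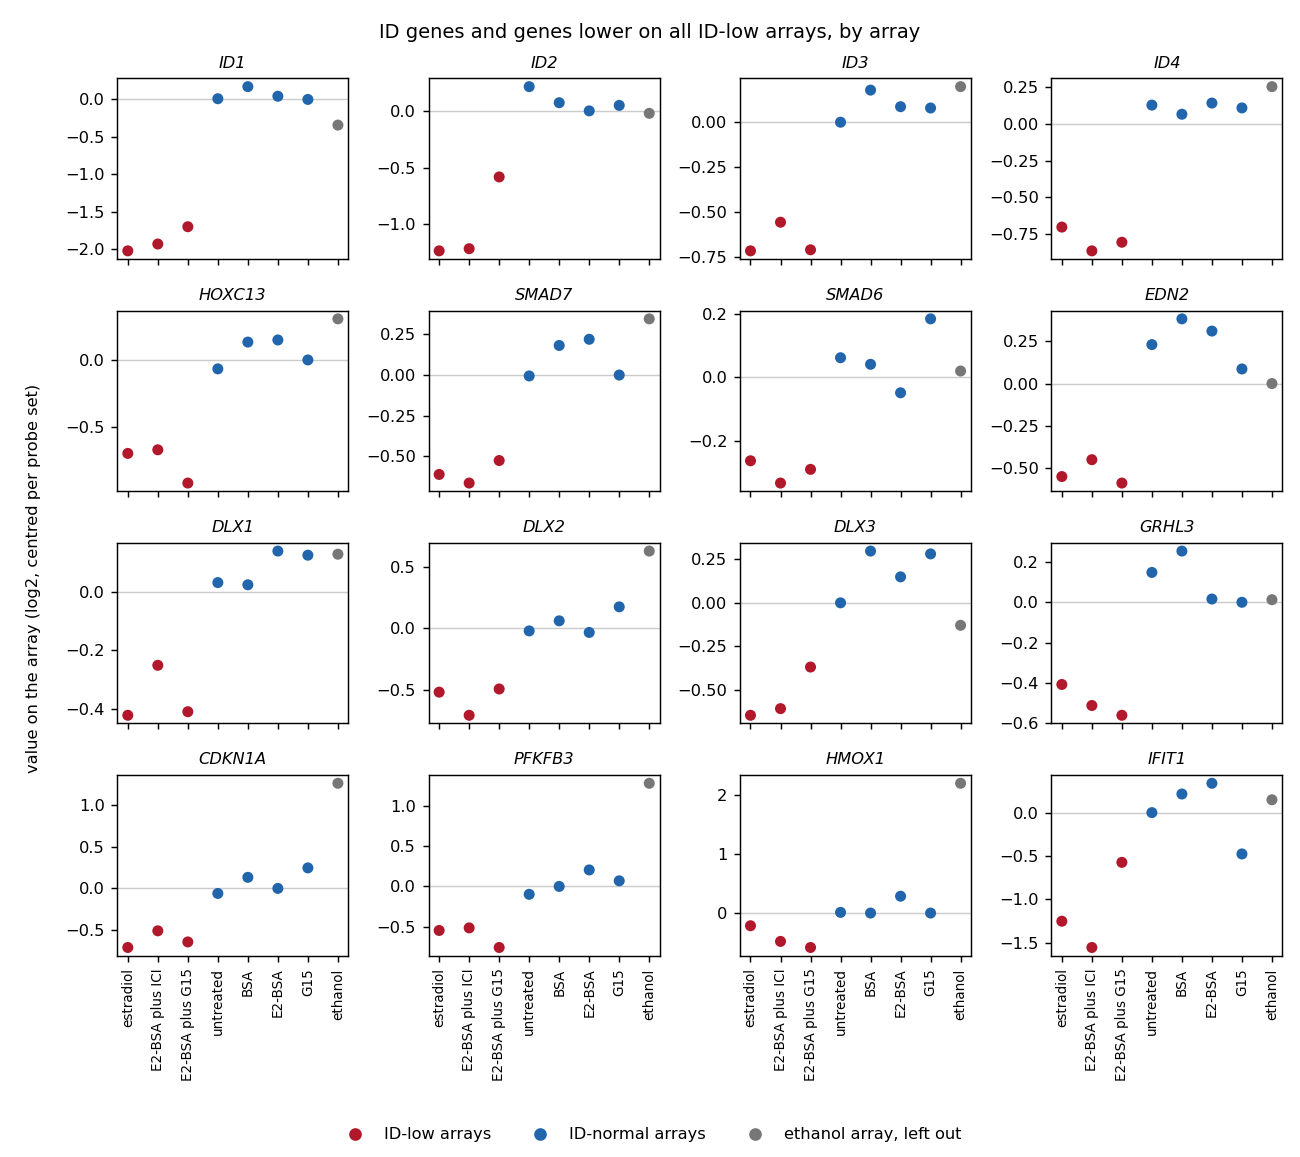
Value on each of the 8 arrays (log2, centred per probe set, vertical scale differing between panels) for ID1 to ID4 and 12 genes that were lower on all ID-low arrays, 1 point per array. The 3 ID-low points lie below the 4 ID-normal points in every panel, narrowly for IFIT1 (gap 0.10), and the ethanol point lies far above them for CDKN1A, PFKFB3 and HMOX1.

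Of the feedback inhibitors of BMP and TGF-beta signalling, a mixed list, 6 of 17 were lower, and of the BMP-responsive transcription factors 6 of 18. Of the BMP ligands, receptors and signalling SMADs 1 of 16 was higher. Over all genes 2.22% were lower and 1.55% higher. SMAD7, which marks activated receptors for degradation, stood at -0.61 with estradiol, -0.66 with E2-BSA plus ICI and -0.53 with E2-BSA plus G15. On the ID-normal arrays it stood at -0.01 untreated, 0.18 with BSA, 0.22 with E2-BSA and 0.00 with G15. The ID-low values lay within 0.14 of each other and the gap was 0.52. SMAD6, the inhibitor more selective for the BMP branch, stood at -0.26, -0.33 and -0.29 against -0.05 to 0.18. That mean hides a single responsive probe set, at -0.84, -0.96 and -0.88 against -0.01 to 0.10, beside 1 more that separated by 0.09 and 2 that overlapped. Both separating probe sets are of the design that can match several transcripts, and without such probe sets SMAD6 overlapped.

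PMEPA1, a membrane protein that sequesters receptor-activated SMADs, was lower with all 3 of its probe sets, at -0.24, -0.11 and -0.24 against 0.01 to 0.14. BAMBI, a decoy receptor, stood at -0.23, -0.05 and -0.40 against 0.00 to 0.23, so E2-BSA plus ICI came close to the ID-normal side. SKIL, a SMAD corepressor, separated by 0.02 and FST, the activin-binding follistatin, by 0.00 to 2 decimals. In the list of BMP and TGF-beta feedback inhibitors 6 of 17 measured genes were lower (35.3%) and 0 higher, beside 2.22% and 1.55% of all genes. The list median difference between the sets (median of the 3 minus median of the 4) was -0.01, beside -0.003 over all genes, and the members went both ways. Of those that overlapped, SKI (-0.06) was the lowest and PPM1A (0.13), TOB1 (0.12) and TGIF1 (0.09) the highest.

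Of the BMP ligands, receptors and signalling SMADs, 0 of 16 genes were lower and 1, SMAD5, was higher, by a gap of 0.01, and the list median was 0.01. With the probe set of largest SD 1 was lower and 0 were higher. BMPR2, a receptor that binds BMPs, stood at 0.00, -0.06 and 0.00 on the ID-low arrays, inside the ID-normal spread of -0.23 to 0.11. ACVR1, a receptor kinase, stood at -0.07, -0.12 and 0.00 against -0.10 to 0.15, so the sets overlapped although E2-BSA plus ICI was the lowest array. SMAD9, itself a BMP target as well as a transducer, missed separation by 0.001: it stood at -0.31, -0.32 and -0.04, and E2-BSA plus G15 lay level with BSA.

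Homeobox genes gave several of the widest gaps. HOXC13, which directs hair and nail keratin genes, had the widest gap of any gene other than the ID genes, 0.61. It stood at -0.70 with estradiol, -0.67 with E2-BSA plus ICI and -0.92 with E2-BSA plus G15, and between -0.07 and 0.15 on the ID-normal arrays. DLX2 stood at -0.52, -0.71 and -0.49 against -0.03 to 0.18, and DLX1, its neighbour in an inverted pair on chromosome 2, at -0.42, -0.25 and -0.41 against 0.03 to 0.14. Distal-less (DLX) factors pattern limbs, jaws and skin appendages downstream of BMPs.

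In both DLX1 and DLX2, 1 of 2 probe sets carried the difference. That of DLX1 stood at -0.83, -0.83 and -0.88 against 0.00 to 0.28. That of DLX2 stood at -0.98, -1.08 and -0.99 against -0.11 to 0.23, the 2 sets lying 0.87 apart. DLX3, a regulator of epidermal differentiation, stood at -0.65, -0.61 and -0.37 against 0.00 to 0.30. Of the 6 DLX genes 3 were lower, beside 2.22% of all genes, while DLX4, DLX5 and DLX6 overlapped. The family was picked out after its values were seen, so this count is no result about the family.

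The list of BMP-responsive transcription factors had a list median of -0.10. In it 6 of 18 genes were lower (33.3%) and 0 higher, beside 2.22% and 1.55% of all genes. Beside the DLX genes the lower ones were HEY1, a Notch and BMP target (-0.24, -0.13 and -0.36 against -0.05 to 0.15), GATA2 by a gap of 0.05 and TBX3 by 0.03. MSX2 missed separation by 0.01. GATA3, a luminal breast factor, and HES1 overlapped. As in every list used here, the members were picked with earlier results of these arrays known, so the counts are no independent support for the list's name.

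GRHL3, a grainyhead factor needed for the skin barrier, stood at -0.41, -0.51 and -0.56 against 0.00 to 0.25. OVOL1, a zinc-finger repressor that acts in epidermal and hair differentiation, stood at -0.44, -0.24 and -0.40 against 0.00 to 0.12, with both probe sets separated. EDN2, the vasoactive peptide endothelin 2, had the gap next to that of HOXC13. It stood at -0.55, -0.45 and -0.59 against 0.09 to 0.38, a gap of 0.54, with ethanol at 0.00 just outside the ID-normal arrays.

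The cell-cycle inhibitor CDKN1A and the glycolysis regulator PFKFB3 were lower by similar amounts. CDKN1A stood at -0.71, -0.51 and -0.64 against -0.06 to 0.25, and PFKFB3 at -0.55, -0.52 and -0.76 against -0.10 to 0.21. HMOX1, the stress-induced heme oxygenase, stood at -0.21, -0.48 and -0.58 against 0.00 to 0.28, with estradiol the mildest. CDKN1A and, by 0.02, GDF15 made up the 2 of 17 p53 targets that were lower (11.8%). PFKFB3 and, by 0.05, DDIT4 made up the 2 of 19 lower hypoxia and glycolysis genes (10.5%). Of all genes 2.22% were lower. The medians of these 2 lists were 0.01 and -0.01. F3, the tissue factor that starts blood clotting, stood at -0.29, -0.47 and -0.43 against -0.08 to 0.20. With DLC1, by 0.03, it made up the 2 of 20 genes lower (10.0%) in the list of YAP and SRF targets.

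The remaining members of the 14 widest lower gaps have no tie to these lists. KANK4, a cytoskeletal adaptor, stood at -0.30, -0.32 and -0.68 against 0.03 to 0.54, where the top value is that of E2-BSA. The noncoding RNA LOC730101 stood at -0.31, -0.42 and -0.45 against -0.01 to 0.29, and JSRP1, a protein of the muscle calcium-release junction, at -0.42, -0.40 and -0.22 against 0.00 to 0.26. For both, 2 or more ID-normal arrays lay well above the nearest one. ID2B, a pseudogene copy of ID2, was lower by a gap of 0.12, and its single probe set may pick up ID2 transcripts, so it is not counted as a separate observation; it is named after its value was seen.

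Among gene means the lower side held the wide gaps and the higher side did not. A gap of at least 0.1 was found for 47 lower genes (0.238%) and 15 higher genes (0.0759%), and of at least 0.2 for 17 and 0. The gap was above the range of the 4 ID-normal arrays for 46 lower genes (0.233%) and 22 higher genes (0.111%). The median gap was 0.03 in both directions, so most separated genes did so by little. As a scale, the SD over genes of BSA minus untreated, a pair without hormone or antagonist, was 0.166; 23 lower genes and 0 higher genes had a gap above it. A difference between set medians of 1.5-fold or more was seen in 10 lower and 2 higher genes.

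HOXC13, CDKN1A, PFKFB3, P2RY6, EGR1, NR4A2 and IRS2, like ID1 to ID3, are measured only by probe sets of the design that can match several transcripts.

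At the edge of the rule the values cannot be told apart. TFRC, the transferrin receptor, counted as lower with E2-BSA plus G15 and BSA both at -0.030, and RAMAC, a cofactor of mRNA capping, did not count with the same 2 arrays both at -0.002. On the higher side NCOA2 counted with both of those arrays at 0.021, and CNNM2 did not with E2-BSA plus G15 and G15 at 0.041.

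**Figure D2:**
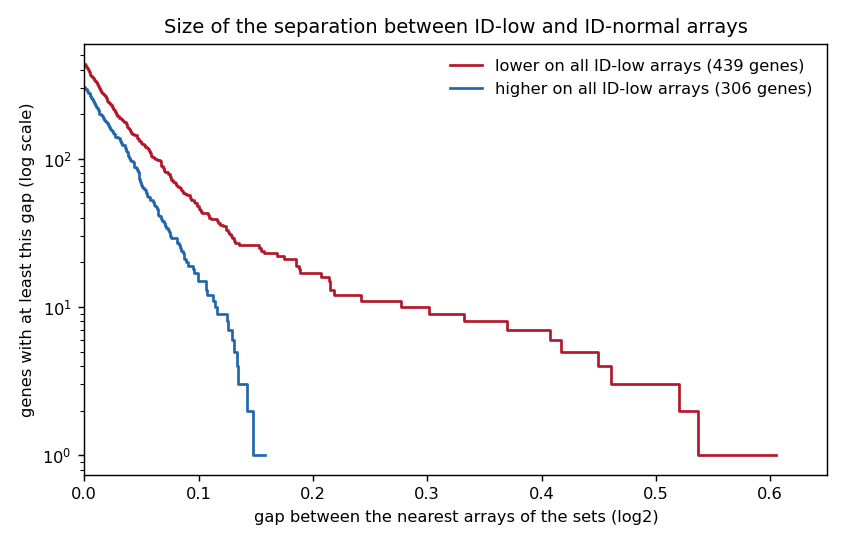
Number of genes (vertical axis, log scale) whose gap between the nearest arrays of the sets is at least the value on the horizontal axis (log2), for the 439 lower and 306 higher genes. The higher curve ends at 0.16 and the lower one at 0.61.

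Interferon-induced genes were the other list with several lower members, 7 of 30 (23.3%), with 0 higher, beside 2.22% and 1.55% of all genes. The list median was -0.17. IFIT1, an RNA-binding antiviral protein, differed most between set medians of all genes other than the ID genes, by -1.36. It stood at -1.25 with estradiol, -1.56 with E2-BSA plus ICI and -0.57 with E2-BSA plus G15, and at 0.00, 0.21, 0.34 and -0.48 on the untreated, BSA, E2-BSA and G15 arrays. G15 alone was thus almost as low as G15 with E2-BSA, and the gap was 0.10. This differs from the ID genes, for which G15 alone lay with the untreated cells.

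IRF9, the DNA-binding subunit of the interferon-activated complex, stood at -0.26, -0.48 and -0.28 against -0.07 to 0.16. For IFIT2 1 of 2 probe sets separated, at -0.55, -0.34 and -0.52 against -0.03 to 0.46. IFIT3 (gap 0.07), OAS2 (0.07), SAMD9 (0.06) and RIGI (0.00) separated narrowly. For IFIT3, SAMD9 and RIGI the E2-BSA array was the highest of the 4 ID-normal arrays, at 0.43, 0.52 and 0.37. Across the arrays the list median ran from -0.23 with E2-BSA plus ICI, -0.16 with estradiol and -0.03 with E2-BSA plus G15 to 0.07 with BSA, 0.09 with E2-BSA and 0.15 with ethanol. The medians of -0.04 untreated and -0.04 with G15 were level with that of E2-BSA plus G15.

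Immediate early genes are transcribed within minutes of a stimulus. Of 27 measured, 4 were higher (14.8%) and 0 lower, beside 1.55% and 2.22% of all genes, and the others overlapped. With the probe set of largest SD for each gene 2 were higher. The list median was 0.10, with differences from -0.32 for JUNB and -0.17 for KLF10 up to 0.62 for EGR1. EGR1, a zinc-finger factor, stood at 0.33 with estradiol, 0.56 with E2-BSA plus ICI and 0.08 with E2-BSA plus G15. Untreated it stood at -0.46, with BSA at -0.35, with E2-BSA at -0.23 and with G15 at -0.05. The difference between set medians was 0.62, the gap only 0.13.

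FOS, a subunit of the AP-1 factor, stood at 0.35, 0.44 and 0.08 against -0.32, -0.10, -0.13 and 0.00 in the same order. For EGR1 and FOS the untreated array was the lowest of all and E2-BSA plus G15 and G15 alone were near each other, so the separation by set medians leans on the estradiol and ICI arrays. NR4A2, an orphan nuclear receptor, stood at 0.12, 0.34 and 0.13 against -0.38 to -0.01, with 2 of 3 probe sets separated, and NR4A3 separated by 0.01. Of the MAPK feedback inhibitors 1 of 20 was higher (5.0%, beside 1.55% of all genes). This was SPRY1, at 0.08, 0.19 and 0.05 against -0.39 to 0.00, and with its probe set of largest SD it overlapped. In the cAMP list, which shares NR4A2 and NR4A3, PDE4D was higher too, by 0.04, and PDE10A lower by 0.003.

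**Figure D3:**
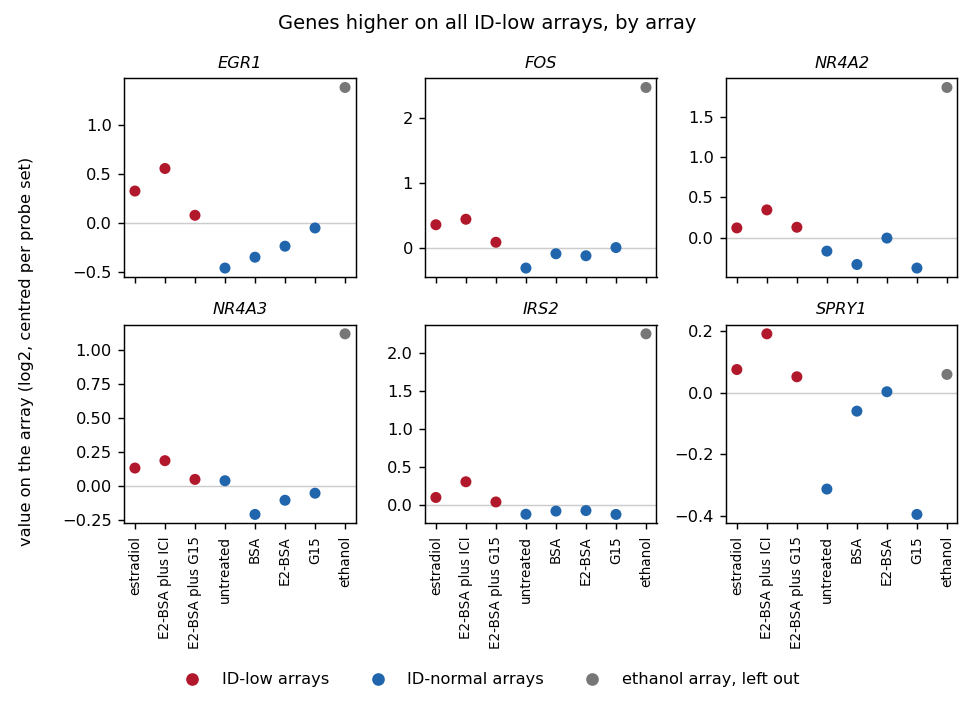
Value on each of the 8 arrays (log2, centred per probe set, vertical scale differing between panels) for 6 genes that were higher on all ID-low arrays. E2-BSA plus G15 is the lowest of the 3 ID-low points for EGR1 (0.08), FOS (0.08), NR4A3, IRS2 and SPRY1, and ethanol is the highest point for all but SPRY1.

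The widest gap on the higher side was 0.16, for P2RY6, a receptor for uridine nucleotides, at 0.21, 0.33 and 0.21 against -0.10 to 0.05. CPS1, the first enzyme of the urea cycle, was higher with both probe sets, at 0.16, 0.23 and 0.16 against -0.17 to 0.03. IRS2, an adaptor of the insulin receptor, stood at 0.10, 0.31 and 0.04 against -0.12 to -0.07, yet neither of its 2 probe sets separated alone. The same held for ATG2B, a lipid-transfer protein of autophagy, with 0 of 4 probe sets. KIZ, a centrosomal protein, rested on 1 of 5 probe sets and LRATD1 on 3 of 7.

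DPEP2NB, CIMAP3, HTR3C and the transcripts LINC01500, PCOTH and OR2H4P completed the 14 widest, with gaps from 0.11 to 0.15. For OR2H4P, an olfactory receptor pseudogene, all 4 ID-normal arrays were listed at exactly 0. TFF1, the best known target of nuclear estrogen receptor, counted as higher by a gap of 0.01, at 0.16, 0.17 and 0.09, because BSA at 0.08 lay level with E2-BSA plus G15. It was the only 1 of 19 nuclear estrogen receptor targets to separate (5.26%), beside 1.55% of all genes that were higher.

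Other lists gave counts of 0 to 2, several of which changed by 1 with the probe set of largest SD. Over all genes 2.22% were lower and 1.55% higher. No gene separated among 19 inflammatory NF-kB genes, 25 of the ATF4 and unfolded protein response, 16 of sterol and fatty acid synthesis, 20 of G2/M or 19 luminal and apocrine breast genes. In the G1/S list 2 of 22 were lower, TYMS by 0.01 and GINS2 by 0.04. Of 12 heat shock genes 1, CHORDC1, was higher by 0.06. Among 18 genes of the basic helix-loop-helix list, HEY1, already counted above, and HES4 (gap 0.09) were lower. MXD1 was higher by 0.00, and the list median was 0.01. The E proteins TCF3, TCF4 and TCF12 were measured and overlapped.

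**Figure D4:**
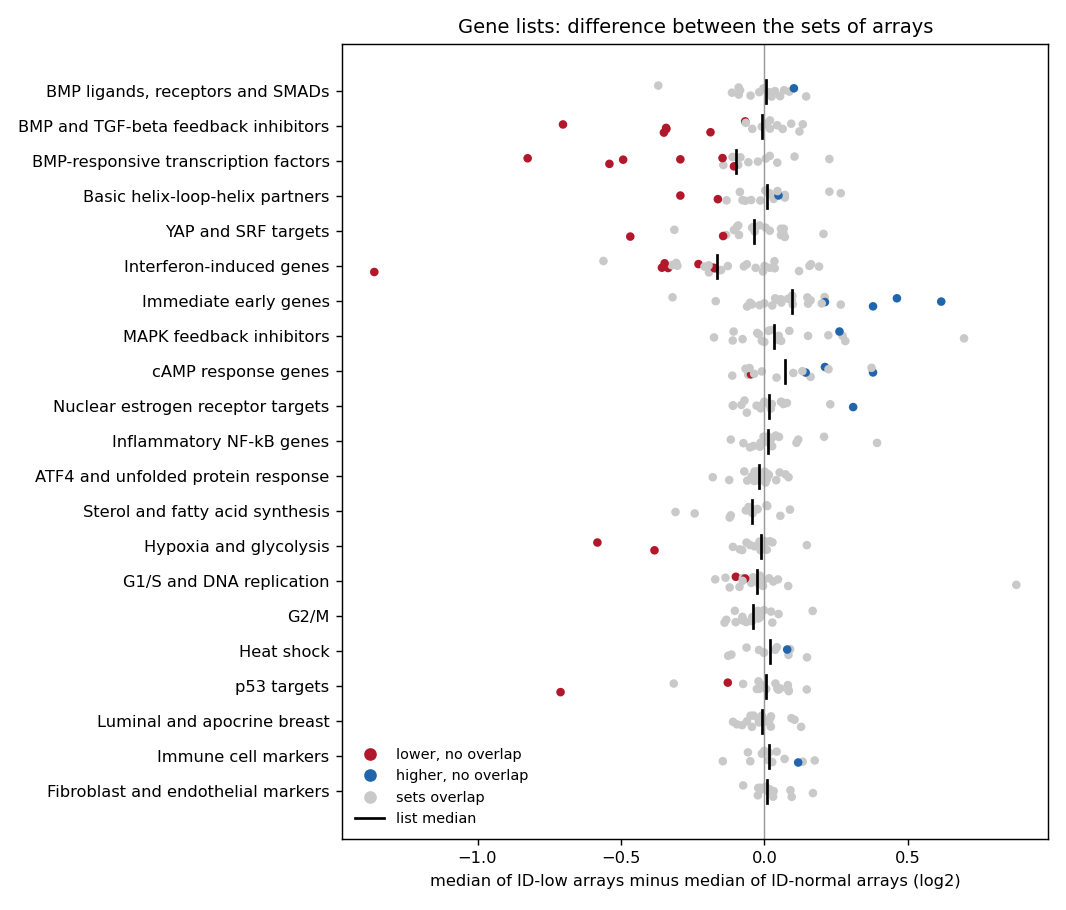
Median of the 3 ID-low arrays minus median of the 4 ID-normal arrays (log2, horizontal axis) for each measured gene of 21 lists, ID1 to ID4 left out. Coloured points are genes whose sets do not overlap and black bars are list medians, which lie between -0.17 (interferon-induced) and 0.10 (immediate early).

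The ethanol array had no part in choosing the sets or the separated genes. It was on the ID-normal side for 238 of the 439 lower genes (54.2%), on the ID-low side for 176 (40.1%) and between for 25. For the 14 widest lower gaps the counts were 11, 1 and 2. The 1 on the ID-low side was KANK4, at -0.35. In 7 of the 14 ethanol lay above all ID-normal arrays: HMOX1 at 2.20, PFKFB3 at 1.28, CDKN1A at 1.26, OVOL1 at 0.64, DLX2 at 0.63, SMAD7 at 0.35 and HOXC13 at 0.31. Set against ethanol, taken as its vehicle, the estradiol array was lower by more than against untreated for 8 of the 14. It was lower by less, or not lower, for 6. CDKN1A differed by -1.97 from ethanol and by -0.65 from untreated. For SMAD7 these differences were -0.96 and -0.61, for EDN2 -0.55 and -0.78, and for KANK4 0.05 and -0.33. Over all 439 lower genes the median was -0.07 against ethanol and -0.11 against untreated.

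On the higher side ethanol was with the ID-low arrays for 96 of 306 genes (31.4%) and with the ID-normal arrays for 194 (63.4%). Immediate early genes were extreme there, with FOS at 2.47, NR4A2 at 1.86, EGR1 at 1.38 and NR4A3 at 1.12, each above all ID-low arrays, and IRS2 stood at 2.25. The ethanol array therefore lay beyond the ID-low arrays for these genes, and on the opposite side from them for CDKN1A, PFKFB3 and HMOX1.

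**Figure D5:**
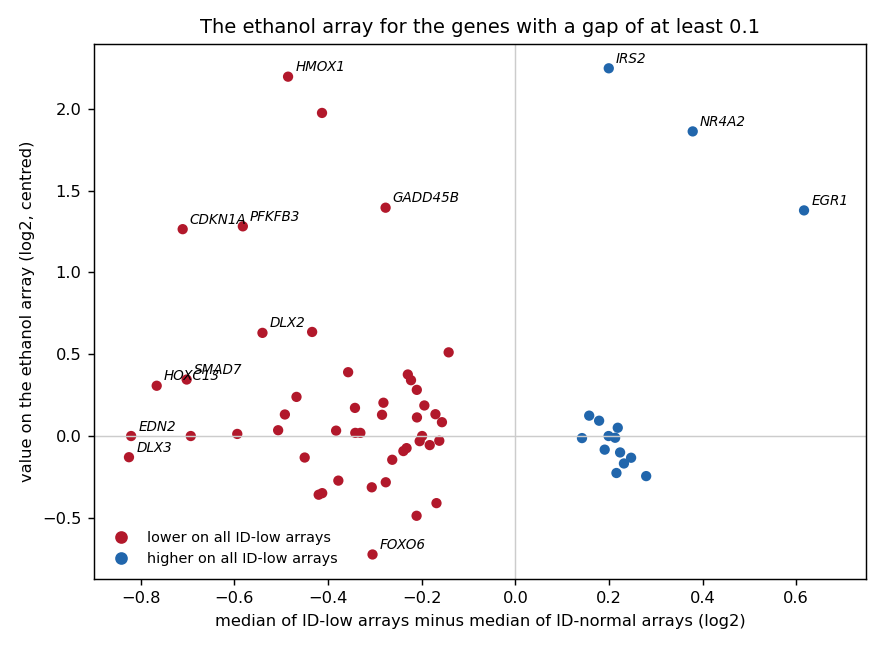
Value on the ethanol array (log2, centred, vertical axis) against the difference between set medians (log2, horizontal axis) for the 47 lower and 15 higher genes with a gap of at least 0.1. HMOX1 (2.20) and IRS2 (2.25) are the highest on the ethanol array on either side, while EDN2 and DLX3 lie near 0.

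Each ID-low array was also set against the array that lacks its hormone, its ICI or its G15. For the 14 widest lower gaps the median was -0.57 for estradiol minus untreated, -0.71 for E2-BSA plus ICI minus E2-BSA, -0.69 for E2-BSA plus G15 minus E2-BSA and -0.66 for E2-BSA plus G15 minus G15. The second and the third share the E2-BSA array, the third and the fourth share the combination array, and separation fixes all these signs. The carrier comparison, E2-BSA minus BSA, lies within the ID-normal set and gave a median of 0.01 for the same genes. HOXC13 differed by -0.63, -0.82, -1.07 and -0.92 in these 4 comparisons, SMAD7 by -0.61, -0.88, -0.75 and -0.53, and DLX3 by -0.65, -0.76, -0.52 and -0.65. The strongest array thus changed from gene to gene: of the 14, E2-BSA plus G15 was farthest from the ID-normal arrays in 7, estradiol in 5 and E2-BSA plus ICI in 2.

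For the 14 widest higher gaps E2-BSA plus ICI was the farthest in 10, estradiol in 3 and E2-BSA plus G15 in 1. Over all 439 lower genes the farthest array was E2-BSA plus ICI in 171, E2-BSA plus G15 in 159 and estradiol in 109. Free and coupled hormone, each at a stated 1e-06 M, fell in different sets. They differ by the albumin to which the coupled form is attached. If the free hormone came in ethanol they also differ by vehicle, which was not tested. Estradiol minus E2-BSA was -0.85 for HOXC13, -0.86 for EDN2, -0.83 for SMAD7, -0.80 for DLX3 and 0.56 for EGR1, and with 1 array each no interval can be given.

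Array-wide measures did not separate the sets. The 3′ minus 5′ signal of the ACTB control probe sets, a sign of RNA integrity, ran from -0.37 to 0.13 on the ID-low and from -0.22 to 0.05 on the ID-normal arrays, and that of GAPDH from -0.04 to 0.16 and from -0.05 to 0.09. The median of the hybridization controls ran from -0.21 to 0.35 and from -0.24 to 0.25. With values centred per probe set, such signals compare arrays only, and the level of RNA integrity cannot be read. Of the immune cell markers 1 of 13 was higher (7.69%, beside 1.55% of all genes), GNLY by 0.06. Of the fibroblast and endothelial markers 0 of 16 separated. The medians of these lists were 0.02 and 0.01. Because levels are removed by the centring, whether the defining markers of SKBR3 or of other cells are present could not be checked. No batch is given in the labels.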

How the data were processed

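The deposited file holds 54675 probe sets of 8 Affymetrix arrays, 1 per condition. Its values, as deposited by the authors, were read as log2 values that had been normalized and centred, from their range of -2.27 to 7.85 and an array median of 0. For the authors' summarization, normalization, log base and software the sources used here give nothing. In no probe set were more than 4 arrays above or 4 below 0, as in values centred on a median per probe set. Centring moves all arrays of a probe set alike and leaves separation and gaps as they are. If the base is not 2, all differences scale by 1 factor.

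Of the probe sets 62 were controls, 41091 carried 1 gene, 1801 several and 11721 none in the platform annotation, which can be old. Symbols were updated by gene identifier for 41037. A gene was the mean of its probe sets, giving 19775 genes, of which 10523 had several. No filter on low values was possible, so genes that are not expressed are included.

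A gene counted as separated where the gap between the nearest arrays of the sets was above 1e-09. No test was made, and the number of arrays limits the precision. The code was tested on simulated data. Named genes were ID1 to ID4, the 14 widest gaps in each direction, separated members of 21 lists, and 2 genes on each side of a gap of 0; others are marked or serve as contrasts within a list. The members and lists were chosen with earlier results of these data known. The comparison with other ways of dividing the arrays, which the rule for choosing genes also names, was not made. Promoters came from RefSeq, GRCh38.p14, and matched 15381 genes, among them 354 of 439 lower and 236 of 306 higher genes. Python 3.11.15, pandas 2.3.3 and matplotlib 3.10.9 were used. Alternatives are given in the closing section.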

Additional observations from a re-analysis of the deposited data

How the results depend on the processing

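The counts of 439 lower and 306 higher genes depended on how strictly separation was read. They were 212 and 128 where every probe set of a gene had to separate. Of these, 200 and 126 have 1 probe set and so meet that condition by construction. Among genes with several probe sets, all separated for 12 of 239 lower and 2 of 180 higher genes. For 119 and 93 of them no probe set separated alone. The counts were 47 and 15 at a gap of at least 0.1. They were 46 and 22 where the gap had to be above the range of the ID-normal arrays. With ethanol counted among the ID-normal arrays they were 263 and 210. Single probe sets in place of genes, an alternative chosen after seeing the data, gave 762 and 587. Leaving out 1 array can only add genes, and gave 774 to 1112 lower and 499 to 1045 higher genes; the highest counts were those without the estradiol array. Under the probe set with the largest SD 392 and 300 genes separated, of which 283 and 179 were among the main ones; the median of probe sets gave 393 and 272, leaving out probe sets with the suffix _x_at or _s_at (multi-transcript designs) 353 and 285, a common interquartile range 493 and 361, and leaving out genes at 0 on 4 or more arrays 439 and 305.

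Of 68 separated genes named by the rule, the sets overlapped for 15 with the probe set of largest SD, among them NR4A2, ATG2B and IRS2, for 14 with the median of probe sets, and for 2 with a common interquartile range. Without multi-transcript probe sets 56 of the 68 kept a value, and the sets overlapped for 15 of these, among them SMAD6; the other 12, HOXC13, CDKN1A and PFKFB3 among them, could not be tried. The difference changed sign for OAS2 (0.044, largest SD), PDE10A (0.015, median), GDF15 (0.052, without multi-transcript probe sets), TFRC (0.009, median, and 0.056, without multi-transcript probe sets) and NCOA2 (-0.008, without multi-transcript probe sets). The cause was not tested. No paired analysis was possible because each condition has 1 array.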

Other observations

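Single probe sets were also read, with a gap limit of 0.5, both added after the values were seen. Of 41082 probe sets with 1 gene other than ID1 to ID4, 762 were lower and 587 higher at any gap. With a gap of at least 0.5, 6 were lower. They belonged to DLX2 (0.87), DLX1 (0.83), SMAD6 (0.83), HOXC13 (0.61), EDN2 (0.54) and SMAD7 (0.52). For DLX1, DLX2 and SMAD6 this gap was wider than that of the gene mean. On the higher side 1 probe set reached this gap, for the mitochondrial chaperonin gene HSPD1 (0.61), whose gene mean over 5 probe sets overlapped. Of the other 8 measured genes of the HOXC cluster, looked at after the values were seen, HOXC11 was lower by a gap of 0.02. The rest overlapped, with differences between set medians from -0.19 to 0.04 over the 8.

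Further genes, named after their values were seen, had gaps above 0.1 and lay far from 0 on the ethanol array. GADD45B, a stress and TGF-beta response gene, was lower by a gap of 0.16 and stood at 1.40 with ethanol. FOXO6, a forkhead factor, was lower by 0.17 and stood at -0.72 with ethanol, farther down than on the ID-low arrays.

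Among the 13522 probe sets with several genes or none, 184 were lower (1.36%) and 218 higher (1.61%), and at a gap of at least 0.1 the counts were 13 and 33. The widest of these gaps were 0.47 on the lower and 0.50 on the higher side. For gene means, a different unit, the limit of 0.1 gave 47 and 15. Protein-coding genes made up 87.2% of the lower, 82.0% of the higher and 83.5% of all genes.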
